A study of Mus musculus with 9 samples.

Results

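Spinal cords of mice with experimental autoimmune encephalomyelitis (EAE), a T cell-driven model of multiple sclerosis, differed widely in how much immune transcript they held, and the strongly inflamed cords were described here against the weakly inflamed ones. The study sequenced 9 whole spinal cord libraries of wild-type mice: 3 from naive mice, 3 from mice with EAE given vehicle and 3 from mice with EAE given GV1001, a peptide derived from telomerase. Of these 9 libraries, the 6 diseased ones were split by their measured inflammation, with no regard to treatment. The strongly inflamed class holds vehicle replicate 1, GV1001 replicate 2 and vehicle replicate 3, and the weakly inflamed class holds GV1001 replicate 3, vehicle replicate 2 and GV1001 replicate 1. All 6 carry the disease and no other allele or agent is labelled, whereas the naive mice had neither disease nor treatment. The labels give no ages, induction protocol, dose, clinical score or day of sampling, and nothing in them ties each replicate to an animal of its own, so p-values measure the spread between these libraries only.

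The classes were chosen on an immune score, the mean log2 difference from the naive mean over 187 immune genes. It was 3.75, 2.54 and 2.01 in the strongly inflamed libraries, in the order just given, and 1.13, 1.23 and 0.51 in the weakly inflamed ones, against -0.19, 0.15 and 0.04 in the naive ones. The lowest strong library, at 2.01, and the highest weak one, at 1.23, thus lie on either side of the divide. All values below keep this order of libraries. Cd74, B2m and C1qa mark the inflamed cords. Cd74, the invariant chain of MHC class II, stood at 721, 209 and 89.1 CPM in the strongly inflamed libraries, 61.1, 26.2 and 14.5 in the weakly inflamed ones and 3.79, 9.55 and 5.72 in the naive ones. B2m, the light chain of MHC class I, stood at 4637, 1793 and 975 CPM in the strongly inflamed libraries, 567, 392 and 246 in the weakly inflamed ones and 232, 317 and 302 in the naive ones. C1qa, a subunit of the complement C1q made by microglia and macrophages, stood at 1102, 359.9 and 425 CPM in the strongly inflamed libraries, 114, 139 and 60.1 in the weakly inflamed ones and 51.2, 58.5 and 64.7 in the naive ones. Each of these markers was higher in every strong library than in every weak one, and the weakly inflamed libraries overlapped the naive ones for B2m and C1qa but not for Cd74. Because immune transcripts set the classes, these values are a description and support nothing, and no difference between the classes is tested anywhere in this text.

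In EAE, T cells that recognise myelin enter the cord through its venules, recruit monocytes and activate the resident microglia. Interferons and interleukin 6-type cytokines from these cells act on astrocytes, which answer through the transcription factor STAT3 with intermediate filaments, acute-phase proteins and protease inhibitors. Phagocytes take up myelin debris, whose cholesterol is exported or stored in droplets, and axons and synapses can be damaged where lesions form. The extent of the lesions is known to differ from mouse to mouse.

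Libraries were made with a 3′ kit that reads the ends of transcripts, and total counts ranged from 5247246 to 6174870. Levels are in CPM, read counts relative to the library total scaled by TMM (trimmed mean of M values), and 3 counts in a library correspond to 0.483 to 0.565 CPM. Differences are mean log2 CPM of the 3 strong libraries minus that of the 3 weak ones, with a prior count of 2, which understates the change of low genes. A gene is called without overlap when each strong library lies above, or below, each weak library. A gene that passed the filter on low counts through the strong libraries alone could only be called higher. One that passed through the weak libraries alone could only be called lower. Such genes were left in the counts. Immune-list transcripts made up 4.09%, 1.66% and 1.84% of the counts in the strong libraries, 0.770%, 0.733% and 0.545% in the weak ones and 0.426% to 0.512% in the naive ones. In whole tissue, fewer cells of a type and less RNA per cell cannot be told apart.

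Of 15351 genes tested, 1730 (11.3%) lay higher in all 3 strong libraries than in any weak one and 1526 (9.94%) lay lower. The rule used these libraries, so nothing is read from the shares themselves. Outside the 187 immune genes, 1598 of 15164 genes were higher without overlap and 1521 were lower, but these directions differed in size. The higher genes had a median difference of 0.68 and the lower ones of -0.34, and 502 of the higher genes against 31 of the lower ones differed by at least 1 on the log2 scale. Weak minus naive had a median of 0.03 over the higher genes and of 0.06 over the lower ones. Weak and naive libraries overlapped for 1181 of the 1598 higher genes (73.9%) and for 1183 of the 1521 lower ones (77.8%), smaller shares than over all tested genes. The weak libraries' own values helped to choose these genes, so nothing is read from this. Set against the naive libraries, strong libraries lay above all of them for 2333 genes (15.2%) and below all of them for 2217 (14.4%), and weak libraries for 1324 (8.62%) and 1242 (8.09%). The 3 weak libraries had fewer genes apart from naive than the 3 strong ones in both directions. The score that set the classes is itself a difference from naive, and these counts include the immune genes, so nothing is read from this order.

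Genes outside the immune set were read in 40 lists of cell types and pathways of the cord. A list's score in a library is the mean log2 difference from the naive mean over its tested members. The counts of members without overlap given below stand against 11.3% higher and 9.94% lower over all tested genes. The scores of 15 lists were higher in each strong library than in each weak one, those of 7 lists were lower and those of 18 overlapped. The same score over all tested genes outside the immune lists was also higher, at 0.12, 0.08 and 0.05 against 0.03, 0.01 and 0.03. Nothing is therefore read from the number of higher lists. Translation factors, counted as higher, barely separated, with a lowest strong score of 0.1834 and a highest weak one of 0.1828. By the median difference of their members, the higher lists were led by reactive astrocytes, the cytoskeleton, cell death and lipid efflux, and the lower ones by synaptic vesicles, spinal neuropeptides, neurotransmitter receptors and mitochondrially encoded genes. Apoe was the only gene shared between one of these lists and an immune list.

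**Figure D1:**
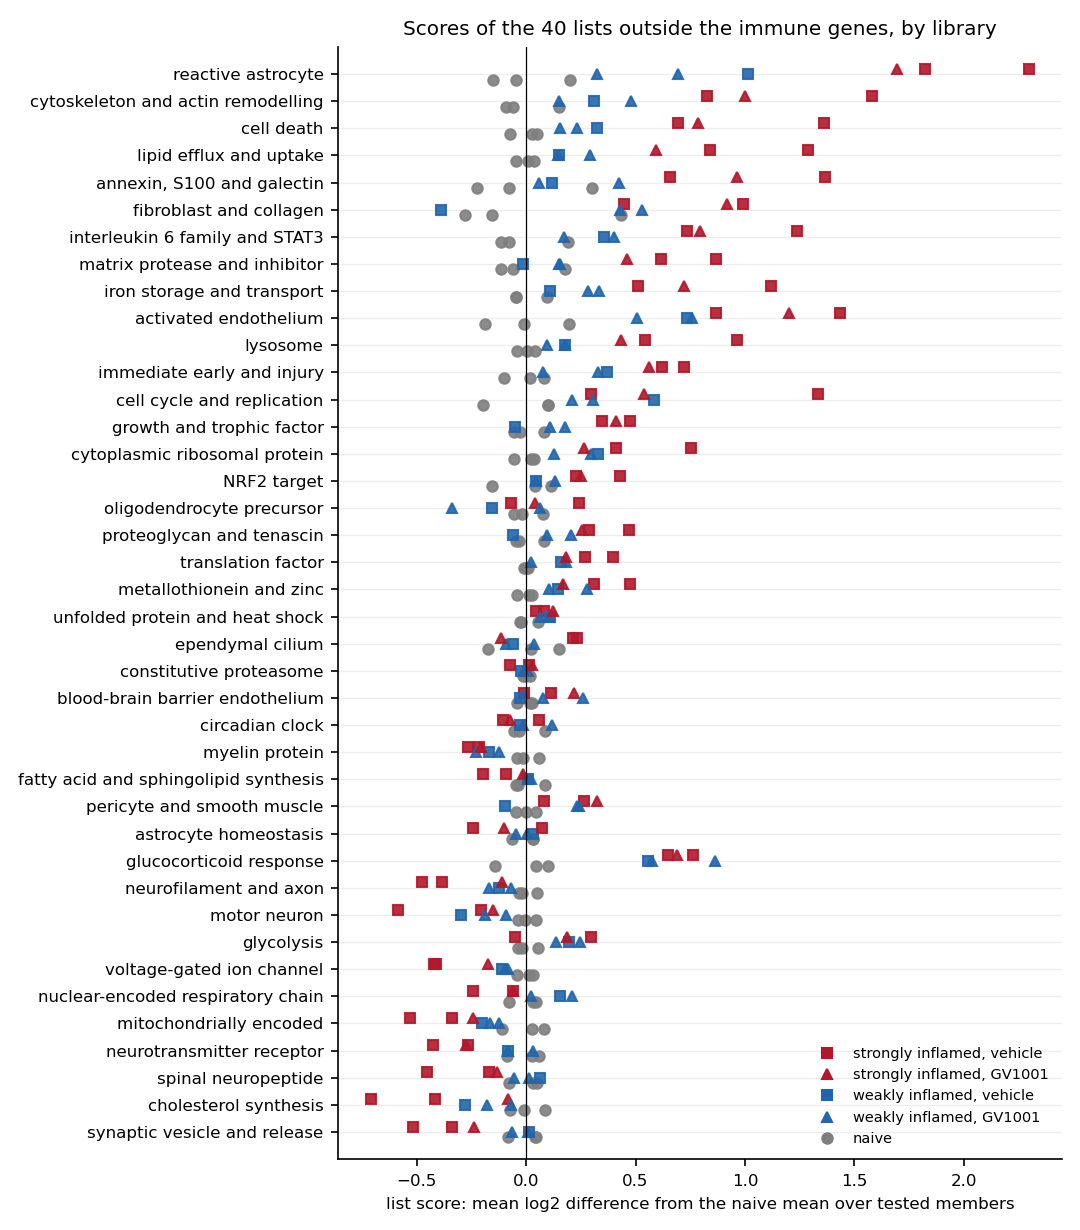
List scores (x axis, mean log2 difference from the naive mean over the tested members) of the 40 lists outside the immune genes, 1 point per library, ordered by the median strong minus weak difference of their members. Reactive astrocyte scores reach 2.30 in the strong class, with every weak library at 1.01 or below, while synaptic vesicle scores of the strong class lie between -0.52 and -0.24.

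Genes listed as those of reactive astrocytes showed the widest split outside the immune lists. Whole cord does not show whether astrocytes or infiltrating cells made these transcripts. The list score was 2.30, 1.69 and 1.82 in the strong libraries, 0.69, 1.01 and 0.32 in the weak ones and -0.15, 0.20 and -0.05 in the naive ones, with class means of 1.94 ± 0.32 and 0.68 ± 0.34 (SD, n = 3). Of 30 tested members, 22 were higher in the strong class without overlap and 0 were lower. The median difference was 1.01, against -0.01 over all tested genes, and 0.97 among members with a mean of at least 10 CPM. Serpina3n, a secreted serine protease inhibitor, stood at 534, 166 and 156 CPM in the strongly inflamed libraries, 35.0, 51.7 and 19 in the weakly inflamed ones and 16.8, 20.8 and 24.0 in the naive ones. Weak and naive libraries overlapped for it, and the difference between the classes was 2.87. Gfap, the astrocyte intermediate filament, stood at 1641, 1197 and 1302 CPM in the strongly inflamed libraries, 847, 776 and 427 in the weakly inflamed ones and 558, 822 and 641 in the naive ones. Its levels in the weak class spanned those of the naive class, so the difference of 1.06 between the classes came with a weak minus naive difference of -0.02. Timp1, an inhibitor of metalloproteinases, had 131, 34.2 and 20.6 CPM in the strongly inflamed libraries, 6.45, 7.11 and 1.88 in the weakly inflamed ones and 1.08, 0.347 and 0.922 in the naive ones, and all weak libraries lay above all naive ones. Tgm1, a transglutaminase, had 17, 5.41 and 6.75 CPM in the strong libraries, 0.645, 0.936 and 0 in the weak ones and no count in any naive library. Tgm1 passed the filter on low counts through the strong libraries alone, so its call as higher was fixed in advance. Among members named after their values were seen, Vim, the filament protein vimentin, differed by 1.42, Cd44, a hyaluronan receptor, by 1.57, and Ptx3, a secreted pentraxin, by 3.23. Cp, the ferroxidase ceruloplasmin, differed by 0.73 and was already 1.09 above naive in the weak class.

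Members of the interleukin 6 family and STAT3 pathway split along with the astrocyte genes. Both lists hold Socs3, so they are not independent. Of 20 tested, 12 were higher without overlap and 1 was lower, with a median of 0.45 and scores of 1.24, 0.79 and 0.73 against 0.40, 0.35 and 0.17. The receptors Il6st, the shared gp130 chain, and Osmr, for oncostatin M, differed by 0.39 and 0.96. Stat3 itself differed by 0.47, at 509, 408 and 396 CPM in the strongly inflamed libraries, 287, 394 and 276 in the weakly inflamed ones and 209, 279 and 226 in the naive ones. Further down the pathway, Socs3, the feedback inhibitor that STAT3 switches on, stood at 58.5, 29.5 and 29.0 CPM in the strongly inflamed libraries, 10.2, 11.8 and 3.96 in the weakly inflamed ones and 3.07, 1.74 and 2.58 in the naive ones. Its difference of 2.18 was larger than that of the receptors or of Stat3, and the weak libraries already lay above the naive ones. Cebpb, a transcription factor of the acute-phase response, differed by 1.53. Cntfr, the receptor chain for ciliary neurotrophic factor, was the member that was lower, by -0.33.

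Socs3 and Gfap are shown with their promoters because they carry the split in pathway feedback and in the astrocyte marker itself. Windows run from 250 bases before to 50 after the start in RefSeq on GRCm38.p6, chr11:117969317-117969616 on the minus strand for Socs3 and chr11:102897151-102897450 on the minus strand for Gfap, 5′ to 3′ along the gene. Capitals mark matches of the STAT motif TTCNNNGAA, which reads the same on both strands.
Socs3: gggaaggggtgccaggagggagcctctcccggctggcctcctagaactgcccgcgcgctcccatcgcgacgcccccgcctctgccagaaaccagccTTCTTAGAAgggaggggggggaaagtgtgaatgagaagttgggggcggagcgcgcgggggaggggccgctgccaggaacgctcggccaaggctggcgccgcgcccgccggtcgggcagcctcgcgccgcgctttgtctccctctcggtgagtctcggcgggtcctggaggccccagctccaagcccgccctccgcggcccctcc
Gfap: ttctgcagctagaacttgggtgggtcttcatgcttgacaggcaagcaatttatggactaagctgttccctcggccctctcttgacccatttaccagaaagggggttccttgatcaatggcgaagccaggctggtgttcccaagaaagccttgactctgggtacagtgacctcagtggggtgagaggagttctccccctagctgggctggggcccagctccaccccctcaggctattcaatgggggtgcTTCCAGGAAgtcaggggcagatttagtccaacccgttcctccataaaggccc
Each window holds 1 match. Of the 26 tested reactive astrocyte genes with a window, 7 (26.9%) hold the motif (Emp1, Gfap, Nupr1, Socs3, Sphk1, Steap4 and Tgm1), against 8.26% of the 11740 tested genes with a window and 8.30% of all 32851 windows. Of these 7, all but Sphk1 were higher in the strong class without overlap, as were 20 of all 26 with a window. In the interleukin 6 family list, 2 of 17 hold it. The motif was chosen after the values were seen, and a match is a run of letters, not a site.

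The genes of astrocyte homeostasis did not move with the reactive ones. Of 30 tested, 2 were higher and 4 lower without overlap, with a median of -0.11, and the list scores overlapped. Those counts are 6.67% and 13.3%, against 11.3% and 9.94% over all tested genes, so nothing is read from them. Aqp4, the water channel of astrocyte endfeet, stood at 539, 367 and 547 CPM in the strongly inflamed libraries, 285, 327 and 296 in the weakly inflamed ones and 375, 377 and 345 in the naive ones. It was higher in the strong class by 0.66, while the weak class lay -0.27 from naive. Slc6a11, a GABA transporter, went the other way, at 220.5, 297 and 236 CPM in the strongly inflamed libraries, 357, 344 and 353 in the weakly inflamed ones and 385, 309 and 381 in the naive ones. Sparcl1, a secreted synapse-promoting protein, was lower by -0.33. Slc1a2, the main glutamate transporter, Glul, glutamine synthetase, and Kcnj10, a potassium channel, overlapped between the classes, with differences of -0.12, -0.13 and -0.05.

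**Figure D2:**
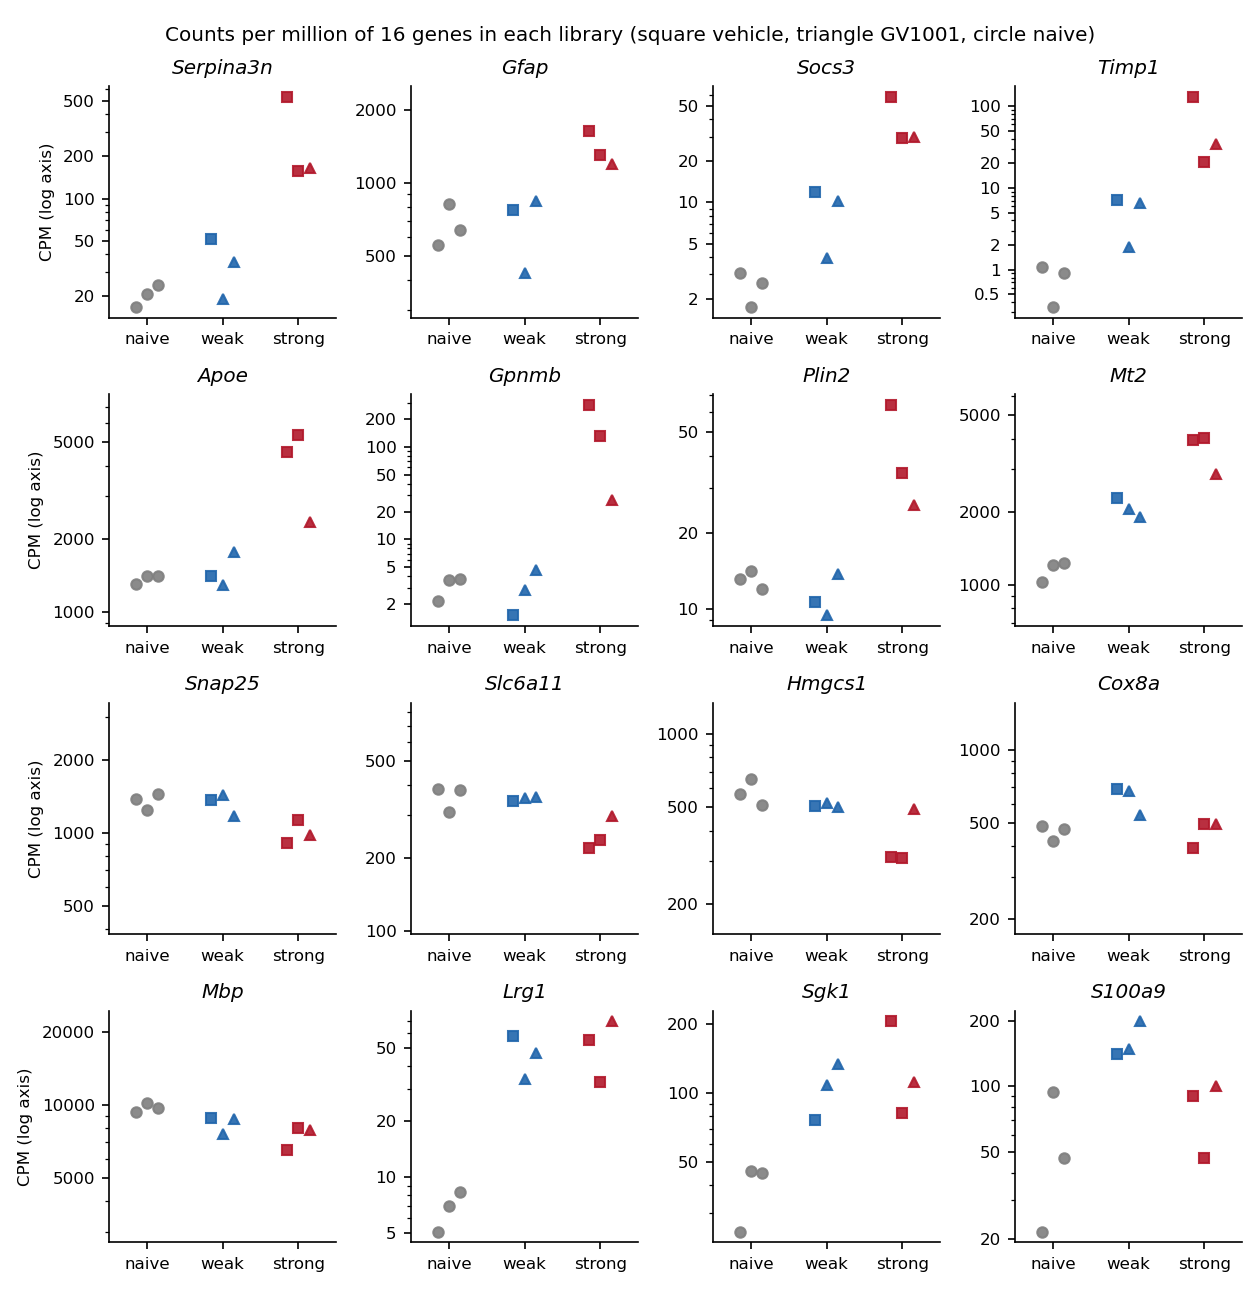
CPM of 16 genes on a log axis in naive, weakly and strongly inflamed libraries, 1 point per library (square for vehicle, triangle for GV1001, circle for naive). Serpina3n, Gfap, Socs3, Timp1, Apoe, Gpnmb, Plin2 and Mt2 are higher in every strong library, Snap25, Slc6a11, Hmgcs1, Cox8a and S100a9 are lower, and Mbp, Lrg1 and Sgk1 overlap.

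Transcripts of lipid handling genes followed the split, and whole cord does not show which cells made them. Of 23 genes of lipid efflux and uptake, 11 were higher without overlap and 0 were lower, with a median of 0.60 that was 0.36 without vehicle replicate 1. Apoe, the main lipoprotein of the cord, stood at 4563, 2346 and 5377 CPM in the strongly inflamed libraries, 1771, 1413 and 1290 in the weakly inflamed ones and 1301, 1407 and 1414 in the naive ones. Weak and naive libraries overlapped, and the strong minus weak difference was 1.39. Plin2, which coats lipid droplets, stood at 63.8, 25.7 and 34.3 CPM in the strongly inflamed libraries, 13.7, 10.7 and 9.42 in the weakly inflamed ones and 13.2, 14.1 and 12 in the naive ones. Abca1, the exporter that loads cholesterol onto apolipoproteins, stood at 160.1, 66.7 and 187 CPM in the strongly inflamed libraries, 54.0, 48.3 and 52.4 in the weakly inflamed ones and 33.0, 49.1 and 39.3 in the naive ones, and Msr1, a scavenger receptor, differed by 2.36. Lipa, the lysosomal lipase, and Npc2, a cholesterol-binding protein of the lysosome, differed by 0.85 and 0.99, and Soat1, which esterifies cholesterol for storage, by 0.71. Gpnmb, a membrane glycoprotein of lipid-laden phagocytes counted among the immune genes, reached 287, 26.9 and 132 CPM in the strong libraries and was at 4.67, 1.5 and 2.83 in the weak ones and at 2.17, 3.65 and 3.69 in the naive ones.

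The strong libraries did not rank alike on lipid genes and on immune genes. Vehicle replicate 3 had the lowest immune score of the class, 2.01, yet its lipid efflux score of 0.84 exceeded the 0.59 of GV1001 replicate 2, whose immune score was 2.54. Between these libraries Apoe was at 5377 against 2346 CPM, Abca1 at 187 against 66.7 and Gpnmb at 132 against 26.9. Interferon response genes ran in the opposite direction: 1 of 35 was higher in vehicle replicate 3 than in GV1001 replicate 2, with a median of -1.33. By comparison, 25 of 33 microglia genes were higher there, and 49.5% of all tested genes. These are single libraries of different treatments, compared after their values were seen, and the difference has no replicate check.

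Cholesterol synthesis genes tended to be low where lipid efflux was high, but not in every strong library. The list scores were -0.42, -0.08 and -0.71 in the strong class and -0.07, -0.28 and -0.18 in the weak class, so GV1001 replicate 2 lay within the weak range. Of 24 tested genes, 6 were lower without overlap and 1, the sterol isomerase Ebp, was higher, with a median of -0.32. The median was -0.14 without vehicle replicate 3, -0.45 among the vehicle libraries and 0.00 among the GV1001 ones. Hmgcs1, the synthase that feeds the pathway, stood at 312, 490.2 and 309.6 CPM in the strongly inflamed libraries, 499, 504 and 517 in the weakly inflamed ones and 565, 651 and 511 in the naive ones. Of the weak libraries, GV1001 replicate 1 lay within the naive range and the others just below it, as did GV1001 replicate 2, and both strong vehicle libraries lay far below. Msmo1, a sterol demethylase, differed by -0.50, Fdft1, squalene synthase, by -0.47 and Sc5d, a desaturase near the end of the pathway, by -0.42.

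The Hmgcs1 promoter is shown as the sterol-regulated member at the head of the pathway, chr13:119690101-119690400 on the plus strand in RefSeq on GRCm38.p6, with the sterol response element core TCACNCCAC, searched on both strands, in capitals.
Hmgcs1: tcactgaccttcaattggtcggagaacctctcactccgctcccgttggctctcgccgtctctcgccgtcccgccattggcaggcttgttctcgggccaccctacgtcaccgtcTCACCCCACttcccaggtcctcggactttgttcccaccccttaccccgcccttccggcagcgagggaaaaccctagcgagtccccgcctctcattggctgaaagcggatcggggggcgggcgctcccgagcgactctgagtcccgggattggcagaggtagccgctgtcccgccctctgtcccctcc
Hmgcs1 was the only one of 17 tested cholesterol synthesis genes with a window to hold these letters, against 1.42% of tested genes with a window and 1.24% of all windows.

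Lysosomal, cytoskeletal and calcium-binding genes were higher in the strong class, with members that are also abundant in phagocytes leading each list. Of 37 lysosome genes, 16 were higher without overlap and 3 lower (Gaa, Ids and Laptm4b), with a median of 0.36. Grn, progranulin, stood at 608, 186 and 153 CPM in the strongly inflamed libraries, 93.3, 71.9 and 48.2 in the weakly inflamed ones and 45.1, 64.8 and 47.9 in the naive ones, and Ctsc, the protease that activates granule enzymes, differed by 1.90. Psap, the precursor of sphingolipid activator proteins, overlapped between the classes and stood 0.56 above naive in the weak class. Of 28 cytoskeleton genes, 19 were higher and 0 lower, with a median of 0.77. Their largest differences were those of Rac2, a GTPase of blood cells, at 2.17, and Dock2, its exchange factor, at 1.99. Other members split as well, with 1.33 for Arpc1b of the actin-nucleating complex, 0.77 for the actin-binding thymosin Tmsb4x and 0.80 for profilin, Pfn1. Actb, beta-actin and the most abundant member, overlapped between the classes, with a difference of 0.57. Among annexins, S100 proteins and galectins, 14 of 20 were higher and 0 lower, led by Lgals3bp (2.37) and S100a4 (1.75), while the astrocyte protein S100b overlapped, at -0.11.

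Genes of cell death, iron and the extracellular matrix were also higher in the strong class, but less so among their more abundant members. Among members with a mean of at least 10 CPM, the median was 0.36 for cell death genes and 0.17 for iron genes. Of 25 cell death genes, 14 were higher without overlap and 0 lower, with a median of 0.67 that was 0.41 without vehicle replicate 1. Gsdmd, the pore-forming gasdermin, stood at 15.3, 9.78 and 5.91 CPM in the strongly inflamed libraries, 2.74, 1.5 and 2.45 in the weakly inflamed ones and 1.80, 2.08 and 1.11 in the naive ones. Bcl2a1b, a survival factor of blood cells with near-identical copies that may share its reads, differed by 2.5. Iron genes had a median of 0.40, which rested on vehicle replicate 1, since it was 0.13 without that library. Ftl1, the ferritin light chain, stood at 553, 242 and 304 CPM in the strongly inflamed libraries, 147, 163 and 154 in the weakly inflamed ones and 86.1, 102 and 95.5 in the naive ones, while the heavy chain Fth1 differed by 0.14 and overlapped. Of 21 matrix proteases and inhibitors, 10 were higher and 2 lower, with a median of 0.45 that was 0.05 among members with a mean of at least 10 CPM. Mmp9, a gelatinase, was one of the latter, at 17.7, 16.1 and 15.4 CPM in the strongly inflamed libraries, 30.9, 31.3 and 26.0 in the weakly inflamed ones and 22.9, 18.2 and 21.9 in the naive ones. It was lower in the strong class than in the weak one and also below the naive range, whereas Mmp14, a membrane protease, was 1.39 higher.

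Fibroblast and collagen genes were higher for 11 of 29 members without overlap and lower for 0, although the list scores of 0.45, 0.92 and 0.99 and 0.53, -0.39 and 0.43 overlapped. Their median of 0.46 ranged from 0.26 without vehicle replicate 2 to 0.72 without GV1001 replicate 3, and was 0.70 without vehicle replicate 1. Col3a1, a fibrillar collagen, stood at 98.7, 118 and 133 CPM in the strongly inflamed libraries, 59.5, 26.0 and 47.5 in the weakly inflamed ones and 23.3, 62.5 and 26.0 in the naive ones. The naive values spanned those of the weak class. Fn1, fibronectin, differed by 1.76, and Tnc, the scar glycoprotein tenascin C, by 1.57.

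The vessel wall was split between activation and barrier genes. Of 19 activated endothelium genes, 7 were higher without overlap and 1 (Apln) lower, with scores of 1.43, 1.2 and 0.87 against 0.76, 0.74 and 0.51 and a median of 0.38, or 0.17 without GV1001 replicate 2. Icam1, an adhesion molecule that leukocytes bind and that phagocytes also make, stood at 43.9, 18.2 and 18.6 CPM in the strongly inflamed libraries, 7.90, 6.18 and 3.58 in the weakly inflamed ones and 1.62, 2.95 and 2.21 in the naive ones. Vwf, the von Willebrand factor of endothelium, had 54.8, 65.3 and 49.5 CPM in the strongly inflamed libraries, 49.0, 33.1 and 37.1 in the weakly inflamed ones and 14.1, 19.8 and 21.6 in the naive ones, so both classes lay above naive. Barrier genes had a median of -0.04, with 1 of 26 higher and 0 lower without overlap. Cldn5, the claudin that seals the barrier, overlapped at 27.5, 26.2 and 20.6 CPM in the strongly inflamed libraries, 27.9, 14.0 and 14.7 in the weakly inflamed ones and 23.6, 18.6 and 18.6 in the naive ones. Slc16a1, a lactate carrier, was the exception, 0.77 higher in the strong class.

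Neuronal genes were modestly but widely lower in the strongly inflamed cords. Of 31 synaptic vesicle and release genes, 19 were lower without overlap and 0 higher, with scores of -0.52, -0.24 and -0.34 against -0.06, 0.01 and 0.01, and class means of -0.37 ± 0.14 and -0.01 ± 0.04 (SD, n = 3). The median was -0.35, and with any 1 diseased library left out it lay between -0.40 and -0.29. Snap25, a core protein of vesicle fusion, stood at 909, 984 and 1127 CPM in the strongly inflamed libraries, 1178, 1360 and 1432 in the weakly inflamed ones and 1374, 1242 and 1450 in the naive ones. All weak libraries were above all strong ones, and weak and naive libraries overlapped. Sv2c, a vesicle glycoprotein, differed by -0.61. Excitatory and inhibitory genes were both among the lower ones: Slc17a6, the glutamate transporter of excitatory terminals, differed by -0.39, Slc32a1, the carrier of inhibitory ones, by -0.50, and Gad1, which makes GABA, by -0.42.

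Receptors and channels had smaller differences in the same direction. Of 32 neurotransmitter receptor genes, 14 were lower and 0 higher without overlap (median -0.29), and of 35 voltage-gated channel genes 14 were lower and 0 higher (median -0.25). Glra1, the glycine receptor subunit of the cord, stood at 397, 521 and 431 CPM in the strongly inflamed libraries, 615, 573 and 587 in the weakly inflamed ones and 681, 602 and 647 in the naive ones. Grin2a, an NMDA receptor subunit, differed by -0.48, Grm7, a metabotropic glutamate receptor, by -0.47, and Kcnab1, a potassium channel subunit, by -0.55. Neuropeptide genes had a median of -0.31, with 7 of 28 lower, among them Cck, cholecystokinin (-0.57), and Penk, proenkephalin (-0.49). Axonal genes were lower in 9 of 25 cases, with a median of -0.18, but GV1001 replicate 2, at a score of -0.11, lay among the weak libraries. Nefl, the neurofilament light chain, stood at 1701, 1897 and 1759 CPM in the strongly inflamed libraries, 2056, 2076 and 2118 in the weakly inflamed ones and 2324, 2353 and 2353 in the naive ones. Here the weak libraries were themselves below every naive one, by -0.17 in the mean. Motor neuron genes showed 1 of 17 (5.88%) lower without overlap, against 9.94% of all tested genes. This was Slc18a3, the acetylcholine vesicle carrier, at -0.30. The motor neuron median of -0.19 became -0.01 without vehicle replicate 1.

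Immune transcripts take up part of a fixed total, so the neuronal values were recomputed with immune-list counts taken out of the totals. The medians then were -0.33 for synaptic vesicle genes, -0.27 for receptors and -0.23 for channels. This rescales each library as a whole, and the median over all tested genes went from -0.01 to 0.01. Immune-list counts were at most 4.09% of a library, so only a small shift could follow, and nothing is read from it. Counts of the other immune transcripts outside the lists were not taken out.

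**Figure D3:**
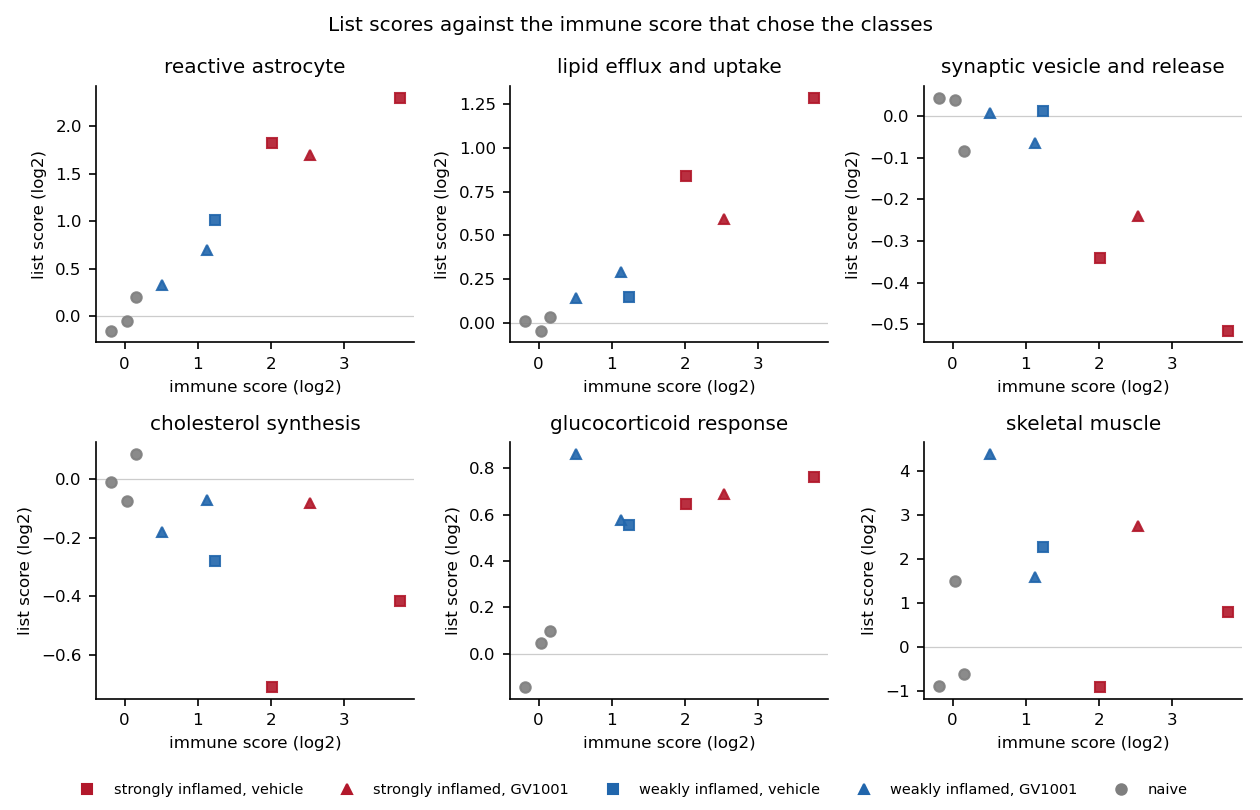
List scores (y axis, log2) against the immune score that chose the classes (x axis, log2), 1 point per library, for 6 lists. Reactive astrocyte and lipid efflux scores are high and synaptic vesicle scores low at immune scores of 2.01 and above, cholesterol synthesis differs between strong libraries, glucocorticoid scores are similar in all diseased libraries, and skeletal muscle scores overlap between the classes, with GV1001 replicate 1, a weak library, highest at 4.38.

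Scores of both mitochondrial lists were lower in each strong library than in each weak one, while ribosomal protein scores overlapped between the classes. Of 53 nuclear-encoded respiratory chain genes, 23 were lower without overlap and 0 higher, with a median of -0.25. Cox8a, a subunit of cytochrome oxidase, stood at 395, 493 and 494 CPM in the strongly inflamed libraries, 540.3, 690.1 and 678 in the weakly inflamed ones and 484, 421 and 474 in the naive ones. The strong libraries overlapped the naive ones, and it was the weak libraries that lay above both, by 0.46 over naive. Over the whole list, weak minus naive had a median of 0.12 and strong minus naive of -0.12, so the split had a share on each side of naive. Mitochondrially encoded genes had a median of -0.26, or -0.17 without vehicle replicate 3 and -0.10 among the GV1001 libraries. Of 9 genes, 4 were lower without overlap, CYTB by -0.34 and ND1 by -0.32. The most abundant, mt-Rnr2, overlapped at -0.02. Their share of all counts overlapped too, at 8.02%, 8.53% and 7.39% in the strong class and 9.34%, 8.08% and 8.93% in the weak one. Of 63 cytoplasmic ribosomal protein genes, 16 were higher and 0 lower, with a median of 0.24 that was 0.10 without vehicle replicate 1. Their scores were 0.75, 0.27 and 0.41 in the strong class and 0.13, 0.33 and 0.30 in the weak one, so GV1001 replicate 2 lay below 2 of the weak libraries. The weak class was itself above naive, by a median of 0.26. Every weak library lay above every naive one for 31 of the 63 genes, against 8.62% of all tested genes. Rps9, of the small subunit, stood at 462, 289 and 268 CPM in the strongly inflamed libraries, 225, 188 and 191 in the weakly inflamed ones and 193, 213 and 197 in the naive ones. Hk2, a hexokinase, stood at 94.8, 39.3 and 35.5 CPM in the strongly inflamed libraries, 18.5, 22.6 and 23 in the weakly inflamed ones and 8.84, 8.16 and 7.93 in the naive ones, the only glycolysis gene higher without overlap, while 5 of 23 were lower, among them the neuronal enolase Eno2, by -0.41. Vegfa, the vascular growth factor, stood at 13.5, 21.7 and 16.2 CPM in the strongly inflamed libraries, 28.8, 32.9 and 28.5 in the weakly inflamed ones and 35.0, 26.1 and 36.1 in the naive ones.

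Myelin genes did not follow the split. The list scores were -0.27, -0.20 and -0.21 in the strong class, -0.12, -0.17 and -0.23 in the weak class and -0.04, 0.06 and -0.01 in the naive class. All 6 diseased libraries thus lay below all naive ones while overlapping each other. Of 32 tested members, 6 were lower and 1 higher without overlap, with a median of -0.06. Those counts are 18.75% and 3.1%, against 9.94% and 11.3% over all tested genes. Mbp, myelin basic protein, stood at 6526, 7864 and 8036 CPM in the strongly inflamed libraries, 8775, 8820 and 7559 in the weakly inflamed ones and 9303, 10134 and 9717 in the naive ones. It did not separate the classes, and for Mag and Cnp, both proteins of uncompacted myelin, the difference was 0.01 and 0.00. Fa2h, which hydroxylates myelin lipids, differed by -0.39 and Mog, the surface glycoprotein of the outer myelin layer, by -0.28. Nkx6-2, a transcription factor of maturing oligodendrocytes, was the member that was higher, by 0.40.

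Glucocorticoid-responsive genes had list scores above naive in both classes, and these overlapped between the classes. The scores were 0.76, 0.69 and 0.65 in the strong class, 0.58, 0.56 and 0.86 in the weak class and -0.14, 0.10 and 0.05 in the naive class, and the highest belonged to GV1001 replicate 1, the least inflamed library. Sgk1, a kinase that steroids induce, stood at 206, 112 and 82.4 CPM in the strongly inflamed libraries, 134, 76.5 and 108 in the weakly inflamed ones and 24.9, 46.0 and 45.0 in the naive ones. Every diseased library lay above every naive one, and the classes overlapped. Of the 20 members, 11 had every weak library above every naive one and 9 had every strong library there. Over all tested genes, those shares were 8.62% and 15.2%. Klf9 and Tsc22d3, both direct glucocorticoid targets, differed by -0.28 and -0.34 between the classes, and lay 0.34 and 0.23 above naive in the weak class but 0.07 and -0.11 from it in the strong class. Lcn2, a siderophore-binding protein that inflammation also induces, was the member with the widest split, 1.74, and stood at 302, 80.5 and 46.4 CPM in the strongly inflamed libraries, 31.1, 36.7 and 26.0 in the weakly inflamed ones and 1.44, 6.95 and 1.11 in the naive ones. Mt2, a metallothionein that binds zinc and answers to both metals and steroids, stood at 3945, 2853 and 4021 CPM in the strongly inflamed libraries, 1899, 2284 and 2048 in the weakly inflamed ones and 1028, 1207 and 1232 in the naive ones. It had steps between all 3 classes, 0.85 from naive to weak and 0.78 from weak to strong, and Mt1 differed by 0.85 between weak and strong. All 11 metallothionein and zinc genes gave a list median of 0.11, or 0.03 without vehicle replicate 1.

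The Mt2 promoter is shown because the gene was graded over all 3 classes, chr8:94172368-94172667 on the plus strand in RefSeq on GRCm38.p6, with the metal response element core TGCGCNC, searched on both strands, in capitals.
Mt2: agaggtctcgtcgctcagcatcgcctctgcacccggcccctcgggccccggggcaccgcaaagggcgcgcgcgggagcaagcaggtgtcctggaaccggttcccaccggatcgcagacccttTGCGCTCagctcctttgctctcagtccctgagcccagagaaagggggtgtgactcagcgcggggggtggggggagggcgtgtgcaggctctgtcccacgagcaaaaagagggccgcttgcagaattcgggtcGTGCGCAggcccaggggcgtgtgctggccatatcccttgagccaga
It holds 2 matches. Of the 11 metallothionein and zinc genes, 5 hold the core (Mt1, Mt2, Slc30a1, Slc30a10 and Slc30a3), against 29.8% of tested genes with a window and 15.4% of all windows, so a match is common.

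By a fixed rule of size, the 10 largest differences outside the immune lists were taken in each direction among genes without overlap whose mean was at least 10 CPM in the naive libraries and in the strong or weak ones. Genes that were low in naive cords, such as Timp1 and Socs3, are therefore not among them. The higher ones included Serpina3n, Plek, Lgals3bp, Fyb, Unc93b1, Grn, Ctsc, Ctsh and Fn1, between 1.76 and 2.87. Several are genes of phagocytes that the immune lists did not hold, such as Plek, a platelet and leukocyte signalling protein, at 136, 47.9 and 50.6 CPM in the strongly inflamed libraries, 15.5, 11.8 and 9.61 in the weakly inflamed ones and 10.8, 10.2 and 11.8 in the naive ones. Immune transcripts therefore extend past the lists, and the count of higher genes outside them includes such genes. The lower ones were Ndufs5, Neurod2, Or10ad1, Mmp9, Vegfa, Slc8a2, Plk5, Btbd17, Plch2 and Zswim5, between -0.86 and -0.77. Slc8a2, a sodium-calcium exchanger of neurons, stood at 9.22, 14.0 and 14.2 CPM in the strongly inflamed libraries, 19.8, 26.8 and 19.4 in the weakly inflamed ones and 16.6, 15.5 and 16 in the naive ones. Neurod2, a neuronal transcription factor, stood at 7.01, 12.6 and 15.4 CPM in the strongly inflamed libraries, 22.1, 22.5 and 16.2 in the weakly inflamed ones and 20.9, 17.7 and 16.2 in the naive ones. The largest lower difference was thus smaller than the smallest of the 10 higher ones.

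A few immune genes ran against the score. Ltf, Ngp, Camp, S100a9 and S100a8, all made in the granules or cytosol of neutrophils, were the 5 immune genes lower in the strong class without overlap. S100a9, a calprotectin subunit, stood at 90.8, 100.1 and 46.9 CPM in the strongly inflamed libraries, 199, 141 and 148 in the weakly inflamed ones and 21.5, 94.0 and 46.8 in the naive ones. Ngp, a granule protein, stood at 10.3, 21.0 and 14.0 CPM in the strongly inflamed libraries, 33.8, 28.6 and 35.4 in the weakly inflamed ones and 2.71, 16 and 8.30 in the naive ones. Weak libraries lay above all naive ones for both, whereas strong libraries overlapped the naive range, and the differences of the 5 genes lay between -1.24 and -0.95. Ly6g, the neutrophil surface marker, had 1, 10 and 6 counts in the strong libraries and 12, 3 and 10 in the weak ones, too few to compare. The same libraries differed in blood and muscle transcripts, given next, whose part in this was not tested.

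Transcripts of neighbouring tissue varied widely between cords, and 3 of the 4 lists were lower in the strong class for nearly all members, although their scores overlapped. All 23 skeletal muscle genes had a lower mean in the strong class, with a median of -2.06. So did 14 of 15 Schwann cell genes (median -0.50) and all 6 hemoglobin genes (median -1.38). In contrast, 9 of 10 dorsal root ganglion genes had a higher mean (median 0.37). These medians leaned on single libraries. The Schwann cell median was 0.09 without vehicle replicate 1, and the hemoglobin median -0.36 without vehicle replicate 2. The ganglion median was -0.65 without GV1001 replicate 2, and the muscle median -1.02 without vehicle replicate 3. Every weak library lay above every naive one for 13 of the 23 muscle genes, and the strong libraries did so for 0. Over all tested genes, those shares were 8.62% and 15.2%. Without overlap between the classes, 1 Schwann cell gene was higher and 1 hemoglobin gene lower. The score of 23 skeletal muscle genes was 0.79, 2.74 and -0.90 in the strong libraries and 1.59, 2.27 and 4.38 in the weak ones, and Acta1, skeletal actin, ranged from 4.56 to 1069 CPM among diseased libraries. Schwann cell scores were -0.96, 0.88 and 0.69 and 1.18, 0.17 and 0.58, so vehicle replicate 1, the most inflamed library, had the least peripheral myelin transcript. Hemoglobin scores peaked at 2.42 in vehicle replicate 2, a weak library. Scn10a, a sodium channel of sensory ganglia, had 238 counts in naive replicate 2, 179 in GV1001 replicate 2 and 51 in GV1001 replicate 3, and 0 to 2 elsewhere. Their part in the differences above was not tested. The scores of all 4 neighbour lists overlapped between the classes.

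Treatment was unequal between the classes, with 2 vehicle libraries and 1 GV1001 library in the strong class and the reverse in the weak class. The split was therefore also read within each treatment, as vehicle replicates 1 and 3 minus vehicle replicate 2, and as GV1001 replicate 2 minus GV1001 replicates 1 and 3. Reactive astrocyte genes had medians of 0.96 and 0.94, cell death genes 0.51 and 0.70, and cytoskeleton genes 0.91 and 0.59. Synaptic vesicle genes had -0.46 and -0.22, and respiratory chain genes -0.32 and -0.16. Lipid efflux differed more among the vehicle libraries, 0.69 against 0.28, as did fibroblast genes, 1.07 against 0.42. Ependymal cilium genes had opposite signs, 0.39 and -0.23. Across the 15164 genes outside the immune lists, 64.4% had the same sign in both treatments, with a Pearson correlation across genes of 0.45, which is a description since genes are not replicates. No difference between the treatments in these values was tested.

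**Figure D4:**
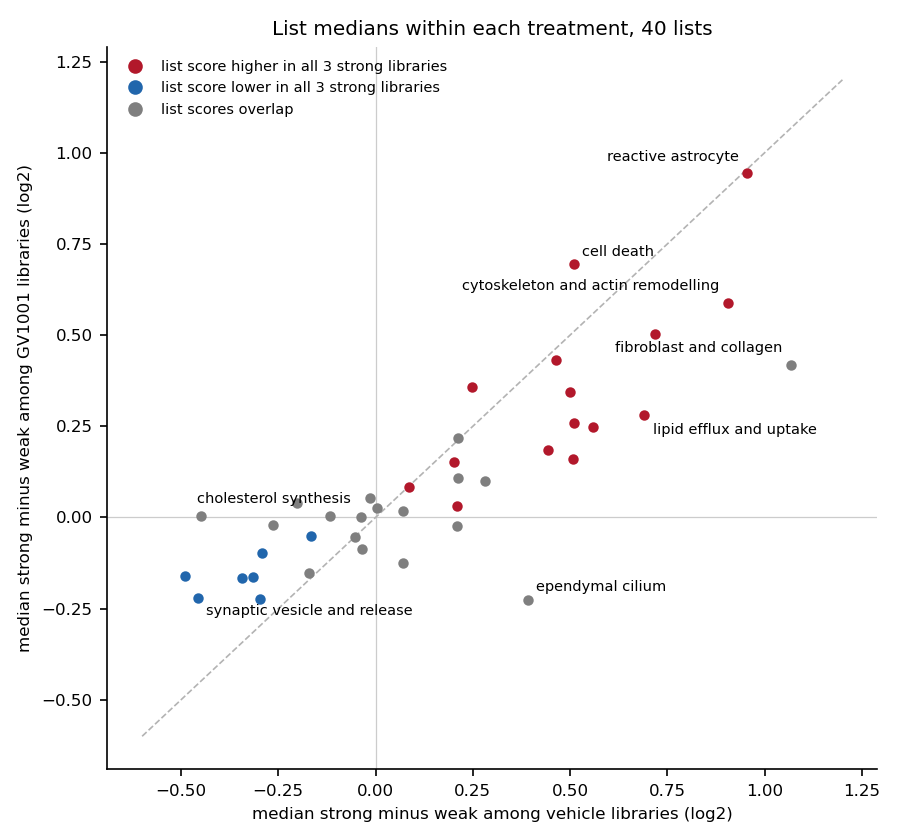
Median strong minus weak difference (log2) of the 40 lists among vehicle libraries (x axis, 2 against 1) and among GV1001 libraries (y axis, 1 against 2), with the dashed line of equality. Reactive astrocyte genes lie near the line at 0.96 and 0.94, most higher and lower lists lie on the vehicle side of it, and ependymal cilium genes have opposite signs.

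Tests were possible only for the labelled groups. With edgeR's quasi-likelihood test over all 9 libraries, the 6 diseased libraries against the 3 naive ones gave 1 higher gene of 15351 (0.00651%) and 0 lower (0%) at an adjusted p under 0.05, with 2353 genes at an unadjusted p under 0.05. DESeq2 called 460 genes higher (3%) and 114 lower (0.743%) of 15340 with an adjusted p, and limma-voom called 0, with 1961 at an unadjusted p under 0.05. The edgeR count was 395 higher and 132 lower when vehicle replicate 2, a weak library, was left out. Lrg1, a glycoprotein of activated venules and of the acute phase, was the gene called, at 55.5, 69.7 and 32.8 CPM in the strongly inflamed libraries, 47.1, 57.8 and 33.9 in the weakly inflamed ones and 5.05, 6.95 and 8.30 in the naive ones. It rose by 2.87 ± 0.31 (log2, SE) with an adjusted p of 0.0328 by edgeR and higher levels in 6 of 6 diseased libraries. Adjusted p ranged from 2.28e-20 with DESeq2 to 0.471 without naive replicate 1, and the call was also lost without naive replicate 2 or 3 (0.437 and 0.287) or GV1001 replicate 3 (0.130), and in limma-voom (0.180). In an edgeR fit that blocked on replicate number, its adjusted p was 0.102. Lrg1 did not separate the classes, which overlapped, with a strong minus weak difference of 0.15. Within treatments the difference had opposite signs, -0.44 among the vehicle libraries and 0.80 among the GV1001 ones.

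Other genes gave no adjusted p under 0.05 by edgeR, so their values against naive are given as such. In edgeR's estimate, Mt2 differed from naive by 1.27 ± 0.20 (log2, SE; adjusted p = 0.122), Cp by 1.48 ± 0.26 (adjusted p = 0.122) and Vwf by 1.38 ± 0.23 (adjusted p = 0.122). DESeq2 gave all of these an adjusted p under 0.05. Gfap differed by 0.58 ± 0.30 (edgeR adjusted p = 0.393), with weak libraries at naive levels and strong ones above. Snap25 differed by -0.22 ± 0.14 (edgeR adjusted p = 0.510) and Mbp by -0.29 ± 0.12 (edgeR adjusted p = 0.299). By list, DESeq2 called 12 of 30 reactive astrocyte genes, 27 of 63 ribosomal protein genes and 7 of 37 lysosome genes higher, and 2 of 31 synaptic vesicle genes and 4 of 32 myelin genes lower, where edgeR called none. GV1001 against vehicle gave 0 genes (0%) by edgeR, with a smallest adjusted p of 0.528 and 1394 at an unadjusted p under 0.05, 13 by DESeq2 and 0 by limma-voom.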

How the data were processed

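RNA of 9 spinal cord samples was sequenced. The labels name TRIzol or a Maxwell RSC kit for the extraction, without saying which for which sample, and libraries were made with QuantSeq 3′ mRNA-Seq. The authors deposited whole-number counts of reads for each gene symbol, not normalized. FastQC, STAR, HTSeq and the build GRCm39 are named in the submitters' processing notes, without versions. The 9 single-library files equalled the table of all samples. No gene coordinates are given, and promoters are from RefSeq on GRCm38.p6.

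The members, lists and tests were chosen with earlier results of these data known. Of 40879 symbols, 14039 had no count, and 15351 passed filterByExpr (minimum count 10). The split was verified by recomputing the immune score and is described without a test. Label groups were tested with the quasi-likelihood F test of edgeR 4.0.16 in 1 fit of 9 libraries (TMM, 1 coefficient per group), adjusted by Benjamini-Hochberg with a threshold of 0.05. DESeq2 1.42.0 and limma-voom (limma 3.58.1) ran beside it in R 4.3.3, on the same genes. Scripts were tested on simulated data. Figures used matplotlib 3.10.9 in Python 3.11.15. Named genes were the most abundant tested member of each list, up to 2 members without overlap of largest difference, the 10 largest differences per direction without overlap outside the immune lists (naive mean and strong or weak mean of at least 10 CPM, predicted genes and immune receptor segments left out), and fixed markers. Other genes were named after their values were seen, and a few genes are not reported here. The counts give a precision limited by 3 libraries per class.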

Additional observations from a re-analysis of the deposited data

How the results depend on the processing

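The number of genes higher in the strong class was 1730, and 1764 with DESeq2 size factors, 1795 with library totals, 1836 with immune counts taken out of the totals (an alternative added after seeing the data), 2287 over every gene with a count in a diseased library and 1219 at a mean of at least 10 CPM. The number lower was 1526, and 1492, 1443, 1390, 1843 and 1123 in the same order. With 1 diseased library left out, the counts ranged from 2108 to 2819 higher and from 1972 to 2854 lower (2819 and 2682 without vehicle replicate 3, 2700 and 2645 without GV1001 replicate 2, 2789 and 2854 without GV1001 replicate 3), since fewer libraries must separate. Over 728 recomputed list medians, 687 moved by less than the spread within classes, 41 moved by more, and no list without overlap changed sign. Over 1540 recomputed differences of named genes, 55 moved by more than that spread and no gene without overlap changed sign. When libraries are left out or read within a treatment, a gene without overlap cannot change sign. Nothing is therefore read from the signs of genes in those settings.

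Against naive, the edgeR count of 1 higher gene became 460 with DESeq2, 0 with limma-voom, 2 with the older quasi-likelihood form, 0 with the replicate block, 17 without the filter on low counts and 0 at a threshold of 0.01, and ranged from 0 to 395 with 1 library left out. The highest came without vehicle replicate 2. Leaving out vehicle replicate 1 gave 3, GV1001 replicate 2 gave 2, and GV1001 replicate 3 or any 1 naive replicate gave 0. The 0 lower genes became 114 with DESeq2 and 3 without the filter, and ranged from 0 to 132, the latter without vehicle replicate 2. The 0 genes of GV1001 against vehicle became 13 with DESeq2 and ranged from 0 to 5, the latter without vehicle replicate 2. The cause of these changes was not tested. Libraries with the same replicate number deviated together in 2 of 9 pairs (correlation over 0.1, range -0.50 to 0.25), so the numbers were not taken to pair them. Depth limits the low genes, since 3 counts correspond to 0.483 to 0.565 CPM.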

Other observations

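Among growth and trophic factors, 9 of 25 tested genes were higher in the strong class without overlap and 4 were lower, but the median of 0.26 was 0.06 without vehicle replicate 2. Tgfb1, a cytokine that restrains T cells and drives scarring, stood at 12.2, 7.51 and 4.56 CPM in the strongly inflamed libraries, 2.58, 1.5 and 0.754 in the weakly inflamed ones and 1.62, 3.13 and 1.66 in the naive ones. Hgf, a ligand of the Met receptor, stood at 10.3, 5.76 and 7.93 CPM in the strongly inflamed libraries, 2.58, 2.06 and 2.07 in the weakly inflamed ones and 3.25, 1.39 and 2.40 in the naive ones. For both genes the weak libraries overlapped the naive ones.

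Oligodendrocyte precursor genes had no common direction, with 3 higher and 3 lower of 21 (14.3% each, against 11.3% and 9.94% over all tested genes). Bmp4, a morphogen that holds back myelin formation, stood at 6.83, 9.61 and 7.26 CPM in the strongly inflamed libraries, 5.32, 2.43 and 2.83 in the weakly inflamed ones and 4.15, 7.82 and 3.87 in the naive ones. Itpr2, an intracellular calcium channel found in newly formed oligodendrocytes and in astrocytes, differed by 0.81. Cell cycle genes had a median of 0.29, or 0.06 without vehicle replicate 1, and Mcm3, a subunit of the replication helicase, stood at 29.3, 16.6 and 15.2 CPM in the strongly inflamed libraries, 7.90, 9.92 and 5.65 in the weakly inflamed ones and 5.59, 6.43 and 7.56 in the naive ones.

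The constitutive proteasome and the unfolded protein and heat shock lists had medians of -0.01 and 0.00, with scores that overlapped. Tert, the catalytic subunit of telomerase from which the GV1001 peptide derives, had 0 to 2 counts in every library except GV1001 replicate 3, with 6, and did not pass the filter.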
